A study of Mus musculus with 16 samples.

Results

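The genes described here are 41 genes of DNA replication and S phase, listed by their known function and followed across 16 mouse tissue and cell samples. A gene was read from the probe set that carries its symbol alone, and where more than 1 probe set did so, from the brightest on average. All 41 had such a probe set, out of 19938 genes measured in that way. The rule itself uses no difference between groups. The study used reprogrammable mice, whose reprogramming factors are switched on by doxycycline, and asked what becomes of tissue when reprogramming is stopped early. The primary kidney tumors (3 arrays) came from mice that were put on doxycycline at 4 weeks, kept on it for 7 days and examined 7 days after it was stopped. The secondary kidney tumors (3 arrays) had been transplanted under the skin of immunodeficient mice. Normal kidney (3 arrays), given as of the same age, was the control of the kidney tumors. An age match to the secondary tumors cannot be checked, since no time is given for them. Primary liver tumors (3 arrays), normal liver (3 arrays) and ES cells (1 array), which carry a 129xC57BL6 F1 background, completed the set. The labels give no dose, and no time for the liver and secondary tumors. Per the labels, the mice were made with the same ES cell line, the tissues have a 129xC57BL6 F1 or mixed background, and the tumors grew in chimeric mice and may hold ICR host cells. Whether the 3 arrays of a group stand for 3 animals is not in the labels. The p-values therefore weigh differences against the spread of these samples alone, and that spread may be technical.

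DNA replication begins when the origin recognition complex, Cdc6 and Cdt1 load the ring-shaped Mcm2 to Mcm7 helicase onto DNA in G1, a step called licensing. In S phase Cdc45, the Gins complex and Mcm10 turn the loaded ring into an active helicase, and primase and the polymerases copy the opened strands around the sliding clamp Pcna. Cyclin E and the E2f transcription factors drive the entry into S phase, and the E2f factors bind promoters of many genes of the machinery. Most cells of adult kidney and liver are out of the cell cycle, and ES cells spend a large share of their cycle in S phase.

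Because the E2f factors are the shared regulators of these genes, the promoters were read for the letters they bind. RefSeq promoter windows of GRCm38.p6, running from 250 bases before to 50 bases after the start of transcription, were found for 34 of the 41 genes. The words searched on both strands were TTTGGCGC, TTTGCCGC, TTTCCCGC and TTTCGCGC, and matches could overlap each other. A gene with more than 1 window was counted if any of them held a word, and the window with most matches was the one printed. At least 1 of these words stood in a window of 13 of the 34 genes (38.2%), against 543 of 15614 measured genes with a window (3.48%). Among the other genes of the pathway described further on, 17 of 66 held one (25.8%). By role, the words were in 7 of 9 licensing genes, 1 of 3 helicase activation genes, 2 of 4 polymerase and primase genes, 2 of 7 clamp, loader and joining genes, 0 of 4 genes of nucleotide supply, 1 of 4 G1/S regulators and 0 of 3 chromatin assembly and checkpoint genes. The CCAAT box stood in 55.9% of the gene windows against 41.7% of all, GGGCGG in 73.5% against 52.9%, and TTTGAA in 14.7% against 17.3%. A match is a string of letters and not evidence of binding, and its absence from a window says nothing about the factor. The windows of 5 genes are printed because they contrast at once in letters and in level. Mcm3, Mcm5 and Mcm6 are helicase subunits with several matches, and Rrm2 changed as much with none. E2f2, which has 2 windows, did not rise although the one printed holds a match. On GRCm38.p6 the windows lie at chr1:20820263-20820562 on the minus strand for Mcm3, chr8:75109259-75109558 on the plus strand for Mcm5, chr1:128359656-128359955 on the minus strand for Mcm6, chr12:24708004-24708303 on the plus strand for Rrm2 and chr4:136172024-136172323 on the plus strand for E2f2. Capitals mark the matches.
Mcm3: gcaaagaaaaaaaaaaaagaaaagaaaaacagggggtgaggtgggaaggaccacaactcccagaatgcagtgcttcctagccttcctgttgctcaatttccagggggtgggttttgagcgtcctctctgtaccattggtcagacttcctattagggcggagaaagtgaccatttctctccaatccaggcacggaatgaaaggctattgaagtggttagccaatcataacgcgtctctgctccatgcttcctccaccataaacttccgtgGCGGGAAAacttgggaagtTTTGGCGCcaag
Mcm5: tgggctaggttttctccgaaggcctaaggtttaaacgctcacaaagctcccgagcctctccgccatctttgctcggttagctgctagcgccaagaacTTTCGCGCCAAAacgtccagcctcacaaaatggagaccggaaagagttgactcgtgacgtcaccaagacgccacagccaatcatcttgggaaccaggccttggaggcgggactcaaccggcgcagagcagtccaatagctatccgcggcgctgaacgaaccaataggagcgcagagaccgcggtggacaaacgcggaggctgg
Mcm6: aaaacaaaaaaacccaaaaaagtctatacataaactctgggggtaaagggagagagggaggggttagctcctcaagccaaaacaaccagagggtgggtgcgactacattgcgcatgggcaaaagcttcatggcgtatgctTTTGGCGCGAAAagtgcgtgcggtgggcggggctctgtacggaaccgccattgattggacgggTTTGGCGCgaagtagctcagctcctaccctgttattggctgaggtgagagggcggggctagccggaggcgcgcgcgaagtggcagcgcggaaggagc
Rrm2: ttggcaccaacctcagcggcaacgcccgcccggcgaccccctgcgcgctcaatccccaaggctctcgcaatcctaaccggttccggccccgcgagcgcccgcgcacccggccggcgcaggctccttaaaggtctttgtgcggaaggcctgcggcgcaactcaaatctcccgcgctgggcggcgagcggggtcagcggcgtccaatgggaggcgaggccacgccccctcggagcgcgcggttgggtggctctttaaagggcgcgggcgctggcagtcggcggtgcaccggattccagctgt
E2f2: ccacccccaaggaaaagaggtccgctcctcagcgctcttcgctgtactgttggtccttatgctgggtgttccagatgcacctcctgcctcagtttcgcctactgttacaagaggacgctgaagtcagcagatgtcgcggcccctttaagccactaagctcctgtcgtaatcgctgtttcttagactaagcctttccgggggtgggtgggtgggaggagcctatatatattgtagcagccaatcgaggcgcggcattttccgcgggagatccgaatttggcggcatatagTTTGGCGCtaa

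In the Mcm5 window the capitals cover a pair of words that overlap on opposite strands, and in Mcm6 the first run of capitals does the same. The 13 genes with a match had a median log2 change of 2.01 in primary kidney tumors against normal kidney, with a range of 0.14 to 3.53. The 21 genes without one had a median of 1.81 and a range of 0.54 to 3.45, so the ranges overlapped almost fully. In secondary tumors against normal kidney the medians were 1.58 with a match and 1.59 without, and in liver tumors against normal liver 1.21 with a match and 0.93 without.

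The arrays carried signs of their tissues. The summed intensity of 7 measured kidney genes (Umod, a tubule gene, among them) was 14916 to 28018 in primary kidney tumors and 1078 to 1148 in secondary tumors, against 49529 to 51779 in normal kidney. In the secondary tumors these genes were near the 1105 of the ES cell array, and the podocyte gene Nphs1 had log2 intensities of 6.45 to 8.71 over all 16 arrays. The 7 measured liver genes summed to 60452 to 79108 in liver tumors, against 88045 to 89858 in normal liver. The 8 ES cell genes summed to 2984 to 6807 over the 9 tumor arrays and 783 to 1150 over the 6 normal arrays, against 39265 on the ES cell array. Of the 8, 5 were called higher and 1 lower in primary and in secondary kidney tumors against normal kidney. In liver tumors against normal liver, 4 were called higher and 0 lower. Myeloid genes (8 of 9 listed were measured) summed to 8246 to 9328 in primary kidney tumors and 7549 to 14772 in secondary tumors, against 2618 to 3234 in normal kidney. Fibroblast genes summed to 17758 to 22584 in secondary tumors, against 3892 to 6556 in primary kidney tumors. Xist, the RNA of the silenced X chromosome in female cells, had a log2 intensity of 10.84 and 10.19 in kidney tumors 2 and 3 and of 10.45 and 11.35 in liver tumors 2 and 3, and of 6.31 or less on every other tissue array. Adipocyte genes were high on 1 array each of secondary tumor, normal kidney and normal liver. The part of these differences in the results on replication genes was not tested. Results without these arrays are given where that changed them, some only where the dependence on processing is described. In bulk tissue, fewer cells in S phase and less RNA per cell cannot be told apart.

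**Figure D1:**
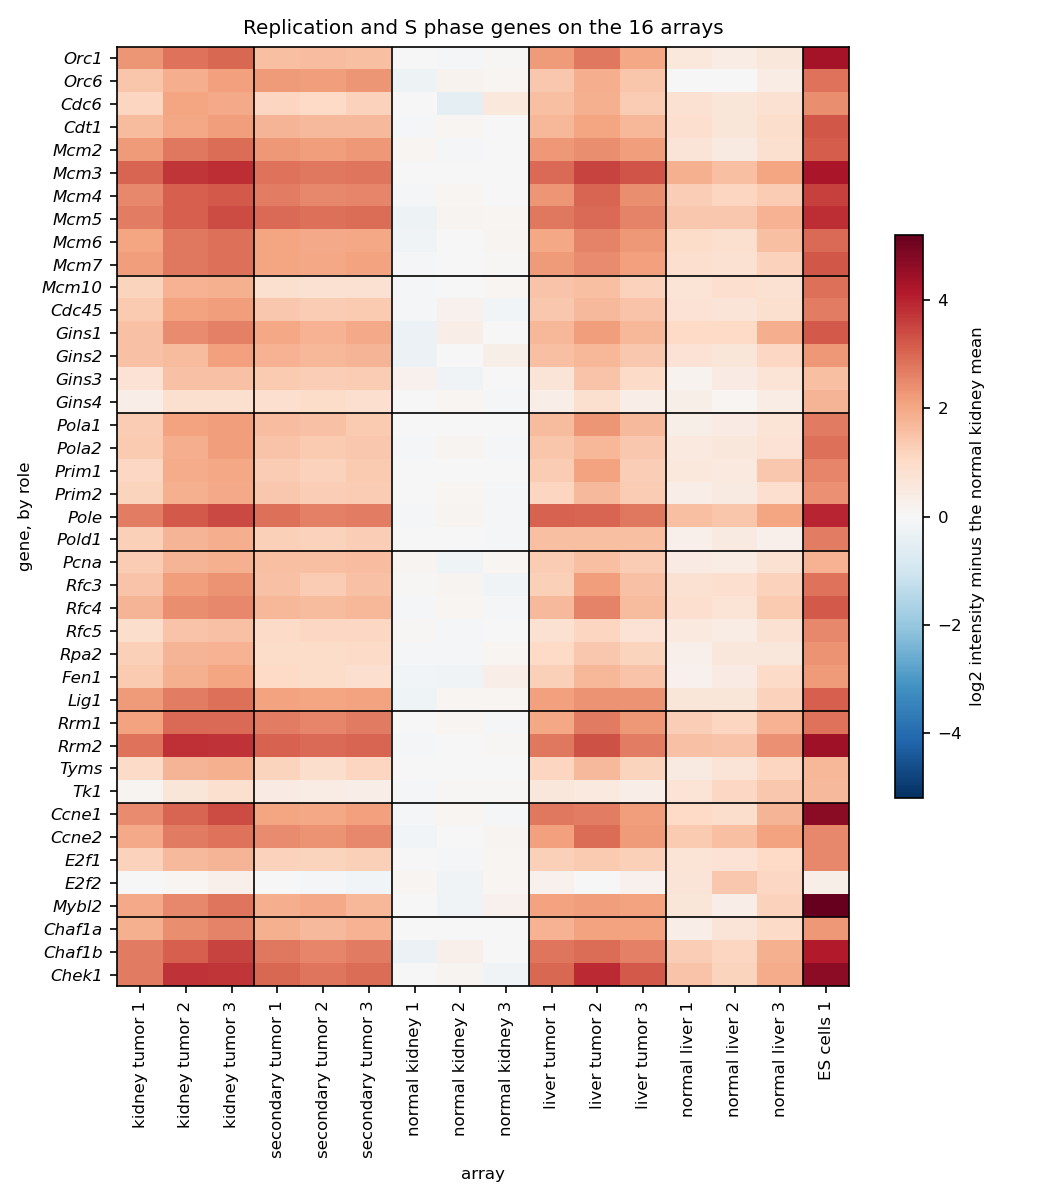
Log2 intensity of each of the 41 genes on each of the 16 arrays, minus the gene's mean in normal kidney, with genes grouped by role down the page and arrays grouped by tissue across it. Tumor and ES cell columns stand above normal kidney for nearly every gene, kidney tumor 1 is paler than kidney tumors 2 and 3, and E2f2 and Tk1 break the pattern in normal liver.

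Levels followed one order for most of the genes. The group mean was lowest in normal kidney for 40 of the 41 genes, a position that 15.3% of all genes shared, and E2f2 was the exception. It was highest in ES cells for 39 genes (24.3% of all genes), the exceptions being Chaf1a and E2f2. For 27 genes the means ran ES cells, primary kidney tumor, liver tumor, secondary kidney tumor, normal liver, normal kidney from high to low, an order held by 2.38% of all genes. For 7 more, among them Pcna, Rrm1, Rrm2 and Mcm5, the order was the same with secondary and liver tumors exchanged (1.02% of all genes). The tumor groups were neighbours in this order. Primary kidney and liver tumors differed for 0 of the 41 genes at an adjusted p under 0.05. Secondary tumors were lower than primary kidney tumors for 11 genes at that threshold (17.4% of all genes). Secondary and liver tumors were not tested against each other. Only Orc6 and Gins4 had all secondary tumor arrays above all liver tumor arrays (26% of all genes). Orc1, picked as an example of the reverse, had 7.49, 7.52 and 7.47 in secondary tumors against 8.13, 8.66 and 7.92 in liver tumors. How many genes had the reverse was not counted. All 9 tumor arrays stood above all 6 normal arrays for 30 genes, against 11.1% of all genes.

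Primary kidney tumors carried more transcript of nearly the whole replication machinery than normal kidney. Of the 41 genes, 40 rose and 0 fell at a Benjamini-Hochberg adjusted p under 0.05 in limma, the call used throughout, while 21.7% of all genes were called higher and 28.1% lower. The rise was at least 2-fold for 38 genes, against 8.3% of all genes, and the median log2 change was 1.94 against -0.11 for all genes. Secondary tumors gave 39 higher and 0 lower against the same normal kidney arrays, where 29.9% of all genes were called higher and 38.7% lower, with a median log2 change of 1.70 against -0.12 for all genes. The primary and the secondary comparison share the normal kidney arrays. All primary tumor arrays stood above all normal kidney arrays for 40 genes (25.3% of all genes), and so did all secondary tumor arrays for 40 genes (33.3% of all genes). E2f2 was the exception in both.

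Mcm3, a licensing gene, had the largest change of the 41 in primary tumors. All 10 licensing genes rose in primary kidney tumors, with a median log2 change of 2.61, and all 10 rose in secondary tumors, with a median of 2.13. As a subunit of the helicase ring, Mcm3 had log2 intensities of 9.85, 10.53 and 10.64 in primary tumors and 9.65, 9.58 and 9.60 in secondary tumors, against 6.83, 6.83 and 6.78 in normal kidney. Every tumor array stood more than 2 log2 units above every normal kidney array. Its log2 change was 3.53 ± 0.19 (SE, adjusted p = 6.08e-08) in primary and 2.79 ± 0.19 (adjusted p = 6.21e-08) in secondary tumors. Mcm2, Mcm4, Mcm5, Mcm6 and Mcm7, the other subunits, rose by 2.55 (Mcm6) to 3.05 (Mcm5) in primary tumors. In secondary tumors these 5 rose by 2.01 (Mcm6) to 2.91 (Mcm5). Cdc6, the loader of the ring, changed least of the role in both. It had 7.72, 8.64 and 8.59 in primary tumors and 7.71, 7.66 and 7.81 in secondary tumors, against 6.59, 6.09 and 7.14 in normal kidney. No tumor array overlapped the normal kidney arrays, although these were spread over a full log2 unit, while kidney tumor 1 lay within the secondary tumors. The change was 1.71 ± 0.26 (adjusted p = 0.000137) in primary and 1.12 ± 0.26 (adjusted p = 0.00227) in secondary tumors. Cdt1, its partner in loading, rose by 1.94 ± 0.13 in primary and 1.71 ± 0.13 in secondary tumors.

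The genes that turn the loaded helicase on rose less. All 6 were called in both tumor groups, with median log2 changes of 1.69 in primary and 1.33 in secondary tumors. Gins1 and Gins4 encode subunits of the same complex and lay at opposite ends of the role in primary tumors. Gins1 had 8.36, 9.28 and 9.44 in primary tumors and 8.83, 8.64 and 8.79 in secondary tumors, against 6.50, 7.16 and 6.78 in normal kidney. Gins4 had 9.83, 10.33 and 10.34 in primary tumors and 10.38, 10.45 and 10.36 in secondary tumors, against 9.46, 9.61 and 9.43 in normal kidney. No tumor array reached down to a normal one for either gene, but the gap was narrow for Gins4. The change was 2.21 ± 0.29 for Gins1 and 0.67 ± 0.15 for Gins4 in primary tumors, and 1.94 ± 0.29 and 0.90 ± 0.15 in secondary tumors. Without kidney tumors 2 and 3, the calls for Gins3 and Gins4 in primary tumors were lost. Cdc45, which joins the Gins complex on the helicase, rose by 1.88 ± 0.18 in primary tumors.

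Both polymerases of the leading and the lagging strand rose, as did both primase subunits. Pole, the catalytic subunit of the leading-strand polymerase, had 9.34, 9.89 and 10.14 in primary tumors and 9.55, 9.30 and 9.35 in secondary tumors, against 6.61, 6.84 and 6.62 in normal kidney. The tumor arrays stood well above the normal kidney arrays, with changes of 3.10 ± 0.20 (adjusted p = 1.77e-07) and 2.71 ± 0.20 (adjusted p = 1.01e-07). Pold1, the catalytic subunit of the lagging-strand polymerase, changed least of the role. It had 8.96, 9.47 and 9.60 in primary tumors and 8.96, 8.90 and 9.01 in secondary tumors, against 7.75, 7.75 and 7.64 in normal kidney. Primary and secondary tumors overlapped each other and both lay above normal kidney, and the change was 1.63 ± 0.13 in primary and 1.24 ± 0.13 in secondary tumors. The primase subunits Prim1 and Prim2 and the polymerase alpha subunits Pola1 and Pola2 rose by 1.66 (Prim2) to 1.86 (Pola1) in primary tumors.

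Among the clamp, its loader and the joining enzymes, all 7 rose in both tumor groups. Lig1, the ligase that seals Okazaki fragments, had 9.93, 10.38 and 10.58 in primary tumors and 9.80, 9.77 and 9.83 in secondary tumors, against 7.50, 7.83 and 7.84 in normal kidney. Rfc5, a clamp loader subunit, had 10.71, 11.29 and 11.34 in primary tumors and 10.81, 10.87 and 10.88 in secondary tumors, against 9.87, 9.73 and 9.83 in normal kidney. For both genes every tumor array stood above every normal kidney array, and the changes in primary tumors were 2.57 ± 0.18 for Lig1 and 1.30 ± 0.16 for Rfc5. Pcna, the clamp itself, had 11.97, 12.44 and 12.50 in primary tumors and 12.22, 12.23 and 12.28 in secondary tumors, against 10.78, 10.42 and 10.75 in normal kidney. Its change was 1.65 ± 0.15 in primary and 1.59 ± 0.15 in secondary tumors, and a second Pcna probe set averaged 12.29 in primary and 12.23 in secondary tumors, against 10.63 in normal kidney.

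Nucleotide supply was split between the reductase, which makes deoxynucleotides anew, and the thymidine kinase Tk1, which salvages them. Rrm2, the regulated subunit of ribonucleotide reductase, had 10.66, 11.64 and 11.62 in primary tumors and 10.91, 10.80 and 10.86 in secondary tumors, against 7.79, 7.87 and 7.89 in normal kidney. Its arrays were separated by more than 2 log2 units, with changes of 3.45 ± 0.27 (adjusted p = 8.73e-07) and 3.00 ± 0.27 (adjusted p = 7.53e-07), the largest of the 41 genes in secondary tumors. Tk1 had 8.50, 9.01 and 9.22 in primary tumors and 8.81, 8.75 and 8.72 in secondary tumors, against 8.27, 8.42 and 8.42 in normal kidney. The primary tumors spanned the secondary ones, both lay narrowly above normal kidney, and the primary tumor change was 0.54 ± 0.18 (adjusted p = 0.0257). In secondary tumors it was 0.39 ± 0.18 (adjusted p = 0.0712) and was not called. The primary call was also lost without kidney tumor 2, without kidney tumor 3 or without normal kidney 1. Quantile normalization, or centring each array on its median, removed it as well. A second Tk1 probe set read 8.53, 8.94 and 9.24 in primary tumors against 7.88, 8.21 and 8.61 in normal kidney, where the groups overlapped. Tyms, which makes thymidylate, rose by 1.54 ± 0.23 in primary and 1.08 ± 0.23 in secondary tumors.

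Among the G1/S regulators, cyclin E rose and E2f2 did not. Ccne1, a cyclin E gene, had 9.90, 10.48 and 10.85 in primary tumors and 9.53, 9.47 and 9.58 in secondary tumors, against 7.41, 7.56 and 7.42 in normal kidney. Its arrays were far apart between tumor and kidney, with changes of 2.95 ± 0.25 (adjusted p = 1.35e-06) and 2.06 ± 0.25 (adjusted p = 9.18e-06). E2f1, an activating E2f factor, rose by 1.54 ± 0.13 in primary and 1.20 ± 0.13 in secondary tumors, and Mybl2, a factor of the later cycle, by 2.42 ± 0.21 and 1.85 ± 0.21. E2f2, the other activating E2f among the 41 genes, had 7.63, 7.68 and 7.87 in primary tumors and 7.61, 7.52 and 7.46 in secondary tumors, against 7.68, 7.40 and 7.69 in normal kidney. These arrays overlapped, and the change was 0.14 ± 0.16 (adjusted p = 0.479) in primary and -0.06 ± 0.16 (adjusted p = 0.732) in secondary tumors.

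The checkpoint kinase gene Chek1 and the chromatin assembly genes rose strongly. Chek1 had 9.27, 10.33 and 10.31 in primary tumors and 9.58, 9.38 and 9.47 in secondary tumors, against 6.63, 6.74 and 6.40 in normal kidney. Chaf1a, which with Chaf1b places histones on new DNA, had 8.97, 9.55 and 9.73 in primary tumors and 9.00, 8.81 and 8.94 in secondary tumors, against 7.09, 7.17 and 7.14 in normal kidney. For both genes the tumor groups overlapped each other, and every tumor array stood above every normal kidney array. Chek1 changed by 3.38 ± 0.29 in primary and 2.89 ± 0.29 in secondary tumors, Chaf1a by 2.28 ± 0.18 and 1.78 ± 0.18, and Chaf1b by 3.12 ± 0.22 and 2.65 ± 0.22.

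**Figure D2:**
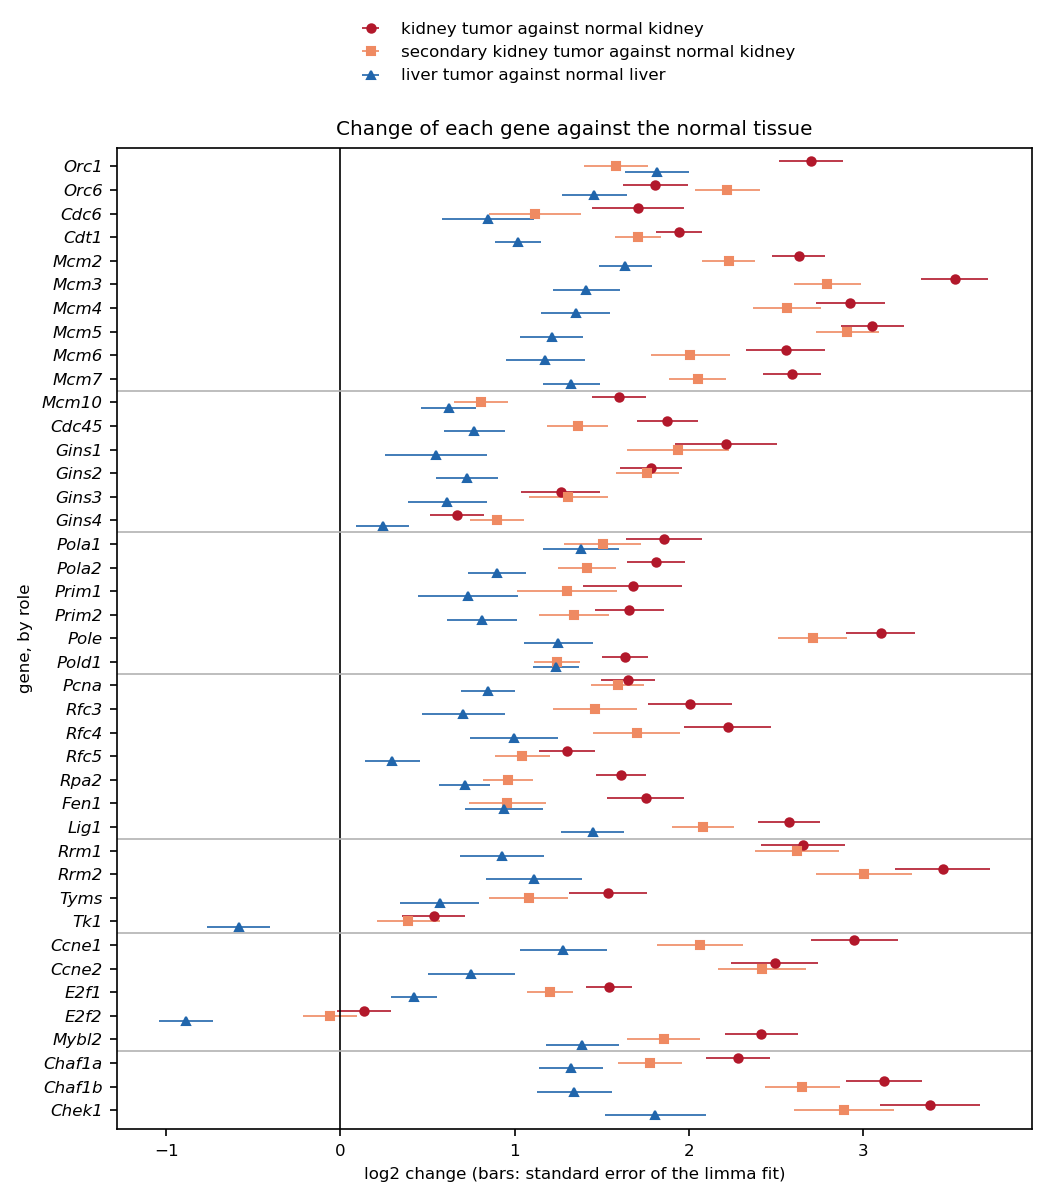
Log2 change of each of the 41 genes in primary kidney tumor and secondary kidney tumor against normal kidney and in liver tumor against normal liver, with the standard error of the fit as bars. Most kidney changes lie above 1 and reach 3.53 for Mcm3, the liver changes are smaller, and E2f2 and Tk1 lie below 0 in liver.

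In the liver the machinery rose as well, by less, and 2 genes went the other way. Liver tumors against normal liver gave 36 higher, 2 lower and 3 not called, while 21.5% of all genes were called higher and 30.7% lower. The rise was at least 2-fold for 19 genes (7.18% of all genes), and the median log2 change was 0.94, against -0.13 for all genes. All liver tumor arrays stood above all normal liver arrays for 34 genes, against 22% of all genes. Quantile normalization, or centring each array on its median, lost 6 of the higher calls (Gins3, Prim1, Rfc3, Tyms, Ccne2 and E2f1). With only the arrays of the groups compared, 5 of these were lost, all but E2f1. All 10 licensing genes rose again, with a median of 1.34 and a largest change of 1.82 for Orc1, the origin recognition subunit. Orc1 had 8.13, 8.66 and 7.92 in liver tumors, against 6.44, 6.30 and 6.51 in normal liver, and the groups were far apart (1.82 ± 0.18, adjusted p = 7.74e-06). Chek1 had 9.56, 10.45 and 9.77 in liver tumors, against 8.07, 7.76 and 8.53 in normal liver, and changed by 1.81 ± 0.29 (adjusted p = 0.000251).

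The genes not called in liver were Gins1, Gins4 and Rfc5. Gins1 had 8.52, 9.00 and 8.53 in liver tumors, against 7.84, 7.85 and 8.71 in normal liver. Gins4 had 9.85, 10.32 and 9.83 in liver tumors, against 9.81, 9.59 and 9.88 in normal liver. Rfc5 had 10.59, 10.91 and 10.55 in liver tumors, against 10.34, 10.21 and 10.62 in normal liver. In each, normal liver 3 reached into the range of the tumors, and the changes were 0.55 ± 0.29, 0.24 ± 0.15 and 0.30 ± 0.16. Normal liver 3 was the highest of its group for 38 of the 41 genes (40.7% of all genes), and without it Gins1 was called. Without liver tumors 2 and 3, which carried Xist, 20 genes were called higher and 1 lower.

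E2f2 and Tk1 fell in liver tumors. E2f2 had 7.83, 7.63 and 7.80 in liver tumors, against 8.25, 9.00 and 8.67 in normal liver, a change of -0.89 ± 0.16 (adjusted p = 0.000488). Tk1 had 8.95, 8.88 and 8.73 in liver tumors, against 9.07, 9.47 and 9.77 in normal liver, a change of -0.58 ± 0.18 (adjusted p = 0.017). Normal liver stood above liver tumor without overlap for both, as it did for 37.2% of all genes, and for none of the other 39 genes. The call for Tk1 was lost without liver tumor 3 and without normal liver 3. A second Tk1 probe set read 8.98, 8.70 and 8.49 in liver tumors against 9.11, 9.20 and 9.67 in normal liver. The summed intensity of 8 measured erythroid genes was 3371, 2132 and 2379 in liver tumors, against 3670, 7182 and 3188 in normal liver, where the groups overlapped. Of the 8, 1 was called higher in liver tumors, 0 were called lower and 7 were not called. Alas2, the erythroid enzyme of heme synthesis, had log2 intensities of 10.53, 8.97 and 9.90 in liver tumors, against 11.04, 12.41 and 10.61 in normal liver (adjusted p = 0.0532). The embryonic globin Hbb-bh1 went the other way, with 7.72, 7.39 and 7.56 in liver tumors against 5.73, 6.05 and 6.09 in normal liver. E2f2 and the erythroid sum were both highest on normal liver 2 and, among liver tumors, lowest on liver tumor 2. Tk1 was highest on normal liver 3, where the erythroid sum was the lowest of normal liver. The part of erythroid cells in both results was not tested.

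**Figure D3:**
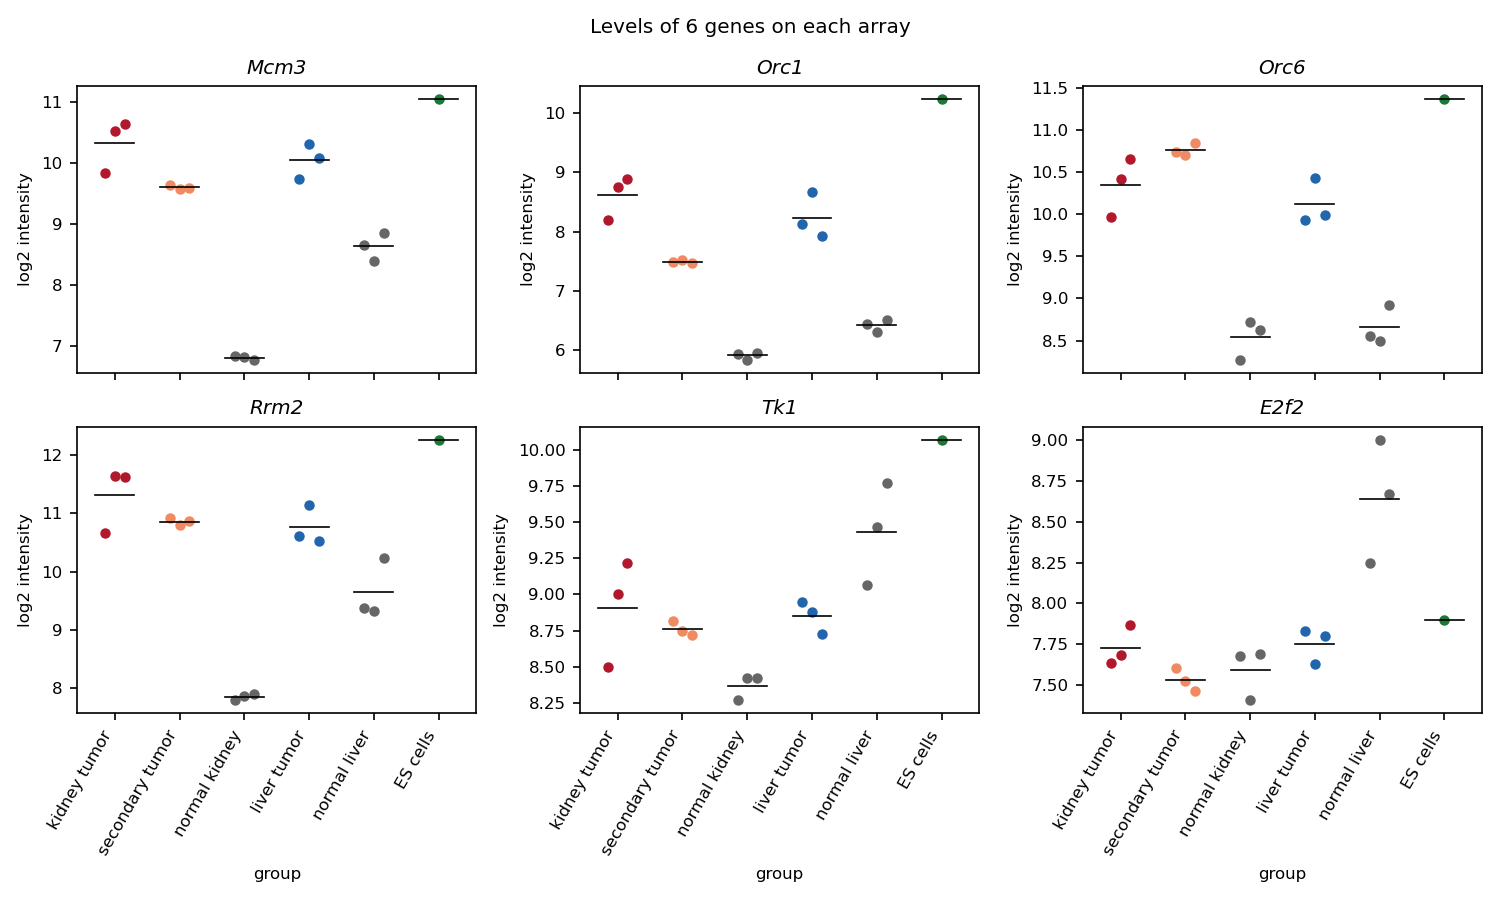
Log2 intensity of 6 of the genes on every array by group, with points for arrays and a line for the group mean. E2f2 is at 7.90 or below in all groups but normal liver, Tk1 is higher in normal liver than in liver tumors, and the primary kidney tumors spread more widely than the secondary tumors.

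The normal organs were themselves unequal. Normal kidney was lower than normal liver for 35 of the 41 genes and higher for 0, while 16.4% of all genes were called lower and 21.4% higher. Of the 35, 14 differed at least 2-fold, against 5.5% of all genes. The median log2 difference was -0.82 for the genes, against -0.04 for all genes, and its sign was negative for all 41. Mcm3 had 6.83, 6.83 and 6.78 in normal kidney, against 8.67, 8.39 and 8.86 in normal liver (-1.82 ± 0.19, adjusted p = 6.12e-06). Rrm2 had 7.79, 7.87 and 7.89 in normal kidney, against 9.38, 9.33 and 10.23 in normal liver (-1.80 ± 0.27, adjusted p = 0.000165). The organs were well apart for both, and all normal liver arrays stood above all normal kidney arrays for 37 genes (28.2% of all genes). The 6 genes not called were Pold1, Fen1, Pola1, Gins3, Gins4 and Orc6. For Orc6, an origin recognition subunit, the arrays had 8.27, 8.72 and 8.62 in normal kidney, against 8.56, 8.50 and 8.92 in normal liver. The gene's organs overlapped, with a difference of -0.12 ± 0.19. Pold1, with 7.75, 7.75 and 7.64 in normal kidney against 7.99, 8.19 and 7.96 in normal liver, was separated by array and missed the call (-0.33 ± 0.13, adjusted p = 0.0622). Fen1, which trims Okazaki fragments, differed by -0.56 ± 0.22, Pola1 by -0.49 ± 0.22 and Gins3 by -0.44 ± 0.23. Without normal liver 3, normal kidney was lower for 25 genes.

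The tumors of the organs lay closer to each other than the organs did. Primary kidney tumors against liver tumors gave 0 calls among the 41 genes in limma, where 7.06% of all genes were called higher and 5.9% lower, and 3 genes passed an unadjusted p under 0.05. The median log2 difference was 0.27 with 39 genes on the positive side, and the range ran from -0.02 for E2f2 to 0.55 for Rrm2. The median was -0.16 without kidney tumors 2 and 3, which carried Xist, and -0.036 when liver tumors 2 and 3, which also carried it, were left out as well. Rrm2 had 10.66, 11.64 and 11.62 in primary kidney tumors, against 10.61, 11.15 and 10.52 in liver tumors. Those arrays overlapped, as they did for every one of the 41 genes (12.8% of all genes had all kidney tumors above all liver tumors). A missed call does not show equal levels: without kidney tumor 1, 13 genes were called higher in kidney tumors, and without liver tumor 2, 4 were.

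The kidney tumor change exceeded the liver tumor change for most of the genes. The difference between both changes, tested in 1 fit, was called for 31 of the 41 genes, all larger in kidney, against 7.54% of all genes called in that direction and 9.26% in the other. Its median was 1.03 log2 units, and it reached 2.34 ± 0.39 for Rrm2 (adjusted p = 0.00138) and 2.11 ± 0.27 for Mcm3 (adjusted p = 0.000274). For each gene this value equals the kidney to liver difference in tumors minus that in normal tissue, for Mcm3 0.29 in tumors and -1.82 in normal tissue. E2f2, which rose in no tumor group, was called as well (1.02 ± 0.22, adjusted p = 0.00672). The 10 genes not called were Tyms, Prim2, Fen1, Prim1, Cdc6, Pold1, Gins3, Gins4, Pola1 and Orc6. Tyms, with a difference of 0.97 ± 0.32, lay closest to the threshold (adjusted p = 0.056). Orc6 had the smallest difference at 0.35 ± 0.26. Without kidney tumors 2 and 3 the count was 8 genes and the median 0.62.

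**Figure D4:**
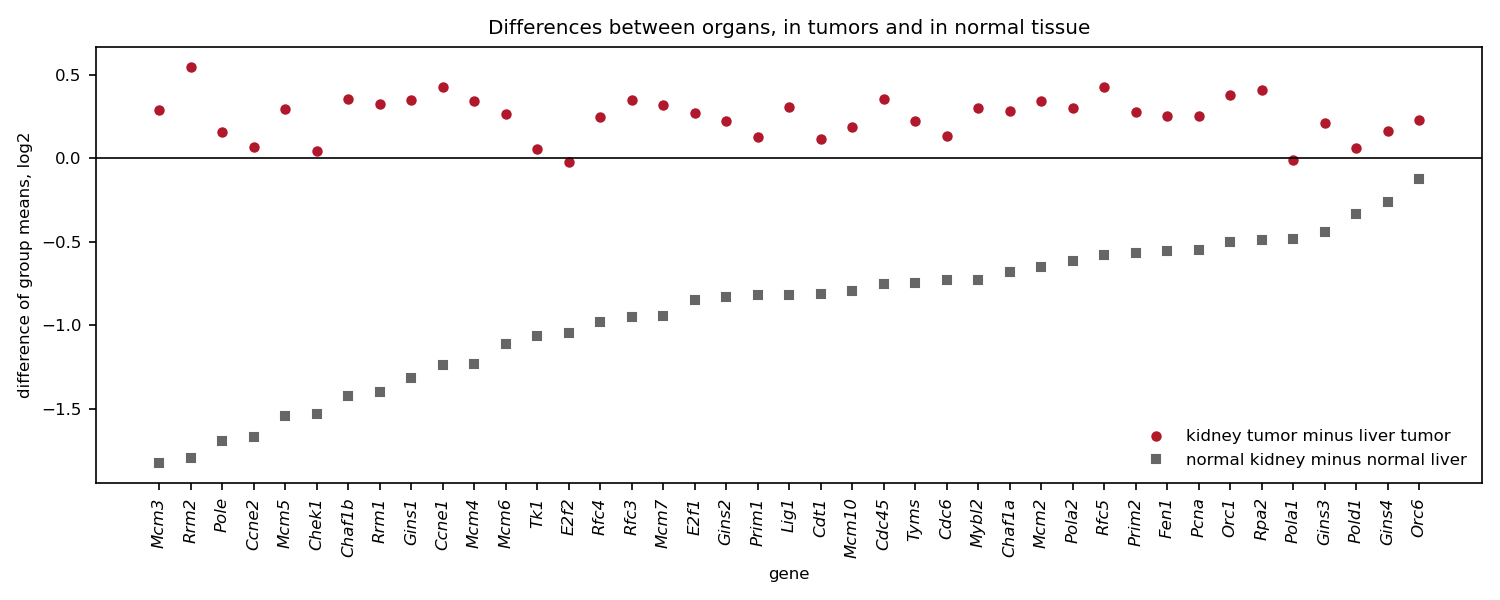
Difference of group means for each of the 41 genes, as primary kidney tumor minus liver tumor and as normal kidney minus normal liver, on the log2 scale. The tumor differences lie between -0.02 and 0.55 and the normal tissue differences between -1.82 and -0.12.

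Secondary tumors were called lower than the primary tumors for part of the machinery, a result that depended on single arrays. Kidney tumor 1 lay at the level of the secondary tumors, with a median difference of -0.05 over the genes. Secondary against primary kidney tumors gave 11 genes lower and 0 higher, where 17.4% of all genes were called lower and 18.5% higher, and 19 of the 41 passed an unadjusted p under 0.05. The median log2 change was -0.40, against -0.07 for all genes, and 38 genes lay on the negative side. Orc1 had 7.49, 7.52 and 7.47 in secondary tumors, against 8.20, 8.75 and 8.90 in primary tumors (-1.12 ± 0.18, adjusted p = 0.000373). Mcm10, a helicase activator, had 8.45, 8.37 and 8.40 in secondary tumors, against 8.75, 9.39 and 9.44 in primary tumors (-0.79 ± 0.16, adjusted p = 0.00145). Rpa2, which coats single-stranded DNA, had 9.35, 9.35 and 9.38 in secondary tumors, against 9.65, 10.15 and 10.22 in primary tumors (-0.65 ± 0.14, adjusted p = 0.00344). In all 3 the groups were apart, with kidney tumor 1 nearest to the secondary tumors. Mcm3 changed by -0.73 ± 0.19, Ccne1 by -0.89 ± 0.25 and Fen1 by -0.79 ± 0.22. Mcm7, Cdc45, Pold1, Lig1 and Chaf1a completed the 11. All primary tumor arrays stood above all secondary ones for 10 genes, against 32.6% of all genes, and all secondary above all primary ones for 2, against 23.6%. Those 2 were Orc6, with 10.73, 10.70 and 10.84 in secondary tumors against 9.96, 10.42 and 10.65 in primary tumors, and Gins4, and neither was called.

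The primary kidney tumors were spread more widely than the secondary ones. Kidney tumor 1 was the lowest of its group for all 41 genes, as it was for 40.7% of all genes. Kidney tumor 3 was the highest for 37 (37.2% of all genes). The median SD over the genes was 0.405 in primary kidney tumors, 0.054 in secondary tumors, 0.099 in normal kidney, 0.245 in liver tumors and 0.237 in normal liver. Over all genes measured, the median SD was 0.127, 0.085, 0.101, 0.180 and 0.106 in the same order. Set against the mean of the secondary tumors, the median of primary minus secondary over the genes was -0.05 for kidney tumor 1, 0.54 for kidney tumor 2 and 0.74 for kidney tumor 3. Kidney tumor 1 was thus at the level of the secondary tumors, and the other two were above it. Kidney tumors 2 and 3 stood above all secondary tumors for 38 genes (40.7% of all genes). Kidney tumor 1 stood below all secondary tumors for 19 genes (35.7%) and above all of them for 10 (47.4%). The count of genes lower in secondary tumors therefore turned on single arrays: it was 29 without kidney tumor 1, 6 without kidney tumor 2, 4 without kidney tumor 3, and 6 or 7 without any 1 of the secondary tumors. Without the secondary tumor, normal kidney and normal liver arrays high in adipocyte genes it was 5. Without both kidney tumors 2 and 3, which carried Xist, 1 gene was lower, 2 were higher and the median change turned to 0.05. Kidney tumor 1 had the highest sum of kidney genes of the primary tumors, 28018, against 24151 and 14916 in kidney tumors 2 and 3, and its part in the order was not tested. Against normal kidney, all primary tumors were far higher, with medians over the genes of 1.54, 2.11 and 2.19 for kidney tumors 1, 2 and 3.

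**Figure D5:**
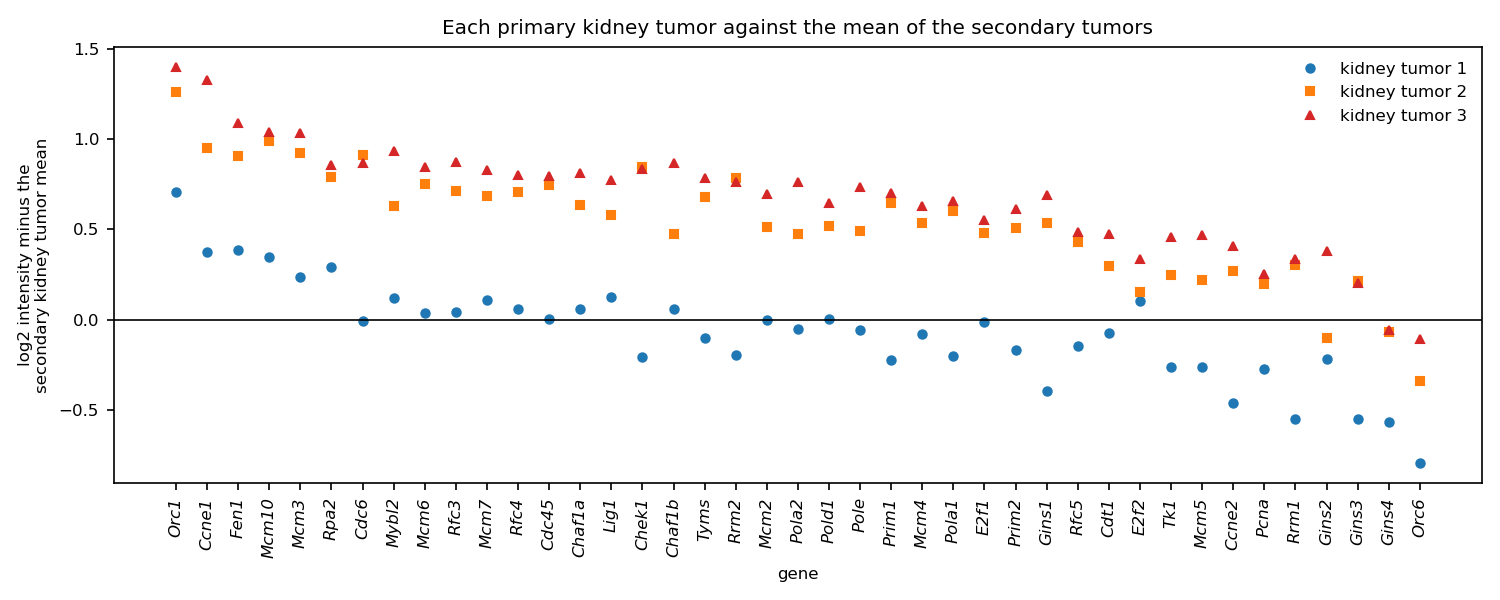
Log2 intensity of each of the 41 genes in each primary kidney tumor, minus the mean of the secondary tumors, with the genes in rank order. Kidney tumor 1 scatters around 0 with a median of -0.05, and kidney tumors 2 and 3 lie above 0 for 38 and 39 genes.

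Most of the genes stayed below the ES cell level in every tumor. The single ES cell array allows no test. It stood above all 9 tumor arrays for 36 genes (29.1% of all genes) and above all 15 tissue arrays for 35 (18.3%). The median gap, taken as ES cells minus the group mean, was 0.82 log2 units for primary kidney tumors, 1.25 for secondary tumors, 1.07 for liver tumors, 1.93 for normal liver and 2.83 for normal kidney. Mybl2 kept the widest gap in every group. It had 9.09, 9.60 and 9.90 in primary kidney tumors, 8.98, 9.09 and 8.83 in secondary tumors and 9.19, 9.29 and 9.22 in liver tumors, against 12.29 in ES cells. Its tumor levels were thus more than 2 log2 units short of the ES cell level. Chaf1a, with 9.73 in kidney tumor 3 against 9.37 in ES cells, was at the ES cell level in primary kidney tumors. Rrm1, the large reductase subunit, had 11.04, 11.89 and 11.92 in primary kidney tumors, against 11.80 in ES cells. Ccne2, Pcna and Tyms were the other genes with a tumor array at or above the ES cell array. E2f2, with 7.90 in ES cells, was higher there than on any tumor array but lower than on any normal liver array.

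Other genes of the same pathway, 81 of 83 listed, gave a mixed picture. In primary kidney tumors against normal kidney, 59 rose, 6 fell and 16 were not called, where 21.7% of all genes rose and 28.1% fell. In secondary tumors 52 rose, 7 fell and 22 were not called, where 29.9% of all genes rose and 38.7% fell. In liver tumors against normal liver, 51 rose, 5 fell and 25 were not called, where 21.5% of all genes rose and 30.7% fell. Ccna2, the S phase cyclin, averaged 11.61 ± 0.39 in primary kidney tumors and 11.72 ± 0.02 in secondary tumors, against 7.42 ± 0.41 in normal kidney (SD, n = 3 each), a change of 4.19 ± 0.27 in the primary tumors. Dtl, which directs the destruction of Cdt1 during S phase, rose by 3.55, and Uhrf1, which carries DNA methylation to new strands, by 3.18. Of the 6 that fell, Rbl2, Cdkn2c and Rrm2b had the largest changes. Rbl2, a relative of the retinoblastoma protein, averaged 8.48 ± 0.58 in primary kidney tumors and 9.03 ± 0.04 in secondary tumors, against 10.17 ± 0.06 in normal kidney, and fell by 1.69 in the primary tumors. Cdkn2c, an inhibitor of the cyclin D kinases, averaged 7.85 ± 0.25 in primary kidney tumors, against 9.27 ± 0.21 in normal kidney, and 7.78 ± 0.24 in liver tumors, against 9.53 ± 0.25 in normal liver. Its log2 change was -1.41 in kidney and -1.75 in liver. Rrm2b, the reductase subunit used outside S phase, fell by 1.04 in primary kidney tumors. In liver tumors the largest rises were 2.46 for Fbxo5, 2.09 for Ticrr and 2.05 for Nasp. Fbxo5 restrains the anaphase-promoting complex, Ticrr acts in origin firing and Nasp carries histones. Against primary kidney tumors, the secondary tumors were lower for 19 of the 81, where 17.4% of all genes were lower, and higher for 3, where 18.5% of all genes were higher. Those 3 were Cdkn2c (0.93), Rb1 (0.60) and Cdkn1b (0.38), which inhibit cell cycle entry. Cdkn1c, another such inhibitor on the list, was not among them, with means of 8.90 in secondary and 8.89 in primary tumors. Primary kidney tumors were higher than liver tumors for 3 (Cdkn1c, Rb1 and Hus1) and lower for 0, where 7.06% of all genes were higher and 5.9% lower.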

How the data were processed

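Total RNA of 16 mouse samples was hybridised to 1-channel Affymetrix arrays after extraction with the RNeasy Plus Mini kit and labelling with the WT Terminal Labeling Kit, per the labels' protocols. The authors deposited 1 linear intensity for each probe set of an array, from 20.7 to 20262, with array medians of 191 to 226. How the authors corrected background, summarised probes and normalized is not given in the sources used here. The genome build in the submitters' processing notes is mm9, and no mm9 coordinate was used. No detection p accompanies the values, so dim transcripts could not be told from background and precision is limited by how few arrays there are.

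The log2 of each intensity was taken without further scaling or filter. The platform annotation of 2016 gave 1 symbol to 21789 of 28856 probe sets, several to 1621 and none to 5446. Single-symbol probe sets covered 19938 genes, and for the 999 genes with more than 1, the probe set of highest mean was used. All 41 genes also passed a filter that left out the dimmest 33.3% of genes. All 16 arrays entered 1 limma fit (version 3.58.1, R 4.3.3) with a coefficient for each group (10 residual and 2.66 prior degrees of freedom). It gave 7 contrasts, tested on both sides, with Benjamini-Hochberg adjustment over all genes. Errors of changes are standard errors of this fit, which takes 1 spread per gene over all groups and so understates the error where primary kidney tumors, the most variable group, are compared. An exact permutation test of 3 against 3 arrays cannot go below p = 0.1 and was not used. The fit was tested on simulated data in which each gene had the same spread in all groups. That test cannot speak to the unequal spread of the groups here. Levels of different genes were not set against each other, since probe sets differ in brightness.

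The genes, the other pathway list, the marker lists, the roles and the promoters printed were chosen with earlier results of these data known. Genes named with all arrays were the largest and smallest change of each role in primary kidney tumors against normal kidney and, per contrast, up to 6 on the minority side of the call. Pcna, Chaf1b, Mybl2, Rrm1 and the other genes named beside them were added as examples after their values were seen. In the other pathway list, the 3 largest changes in each direction were named. The alternatives were other normalizations, filters, probe set rules, variance and weight settings, a replicate block and leaving out arrays, among them 3 sets of arrays chosen after seeing the data. Sorted cells and DNA methylation data were not analysed here.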

Additional observations from a re-analysis of the deposited data

Results flagged for a closer look

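The tumor change differed between kidney and liver for 31 of the 41 genes (an adjusted p under 0.05 for the difference itself in limma). The change was larger in kidney for all 31, and 7.54% of all genes were called in that direction. Without the arrays high in adipocyte genes, 9 of these calls were lost. The median difference was smaller without kidney tumors 2 and 3, as given above. Among the genes named, the log2 difference was 2.34 for Rrm2, 2.11 for Mcm3, 1.85 for Pole, 1.67 for Ccne1, 1.66 for Gins1 and 1.58 for Chek1. It was 1.13 for Lig1, 1.12 for Tk1, 1.02 for E2f2, 1.00 for Rfc5 and 0.96 for Chaf1a. For Tk1 and E2f2 it combines a positive kidney change with a fall in liver tumors (0.54 and -0.58 for Tk1, 0.14 and -0.89 for E2f2), and the E2f2 kidney change was not called. Groups of 3 arrays are too small for a test for outlying samples, so none was run. Arrays were weighted and left out in the alternatives described below.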

How the results depend on the processing

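The rise in primary kidney tumors held for 37 to 40 genes and that in secondary tumors for 39 or 40 under every alternative run; the primary median was 1.54 without kidney tumors 2 and 3, whether or not the liver tumors with Xist stayed in. Liver tumors gave 20 genes higher without liver tumors 2 and 3 and 27 without the tumor arrays with Xist of both organs, with 1 lower in both; leaving out single arrays gave 29 to 37 higher and 1 to 2 lower. For secondary against primary tumors, 6 genes were lower with only the groups compared, 21 with each array centred on its median, 31 with array weights, 5 without the arrays with adipocyte signal, and 4 to 29 on leaving out single arrays. Quantile normalization and array weights each gave 1 higher there, and single arrays left out gave 0 to 1. Without kidney tumors 2 and 3, 1 gene was lower and 2 higher, with a median of 0.052; without the liver tumors with Xist as well, 2 were lower and 2 higher, with the same median of 0.052. Between kidney and liver tumors, 14 genes were higher with array weights, 1 with a replicate block and 0 to 13 without single arrays, and the median turned to -0.16 without kidney tumors 2 and 3 and -0.036 without all 4 tumor arrays with Xist. The difference between the organs' tumor changes was called for 8 genes (median 0.62) without kidney tumors 2 and 3 and 14 (median 0.72) without all 4. Orc6 in normal kidney against normal liver ranged from -0.21 to 0.0097 without single arrays, turning positive without normal kidney 1 (0.0097) or normal liver 3 (0.0074). Without the arrays with adipocyte signal, 9 of the 31 calls for the difference between the organs' tumor changes were lost. In normal kidney against normal liver 8 of 35 were lost, and in liver tumors against normal liver 6 of the 36 higher ones. No call was gained in these comparisons. The cause was not tested, except that fewer arrays also widen the errors.

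Arrays of the same number were not treated as pairs in the main fit. Correlations of their deviations ran from -0.28 to 0.27 over 30 pairs, 6 of them over 0.1. The highest were 0.27 and 0.25, for primary kidney with liver tumors of numbers 1 and 2, against 0.0038 for number 3. In both organs Xist was low on tumor 1 and high on tumors 2 and 3. Whether kidney and liver tumors of 1 number came from the same animal was not tested. The replicate block moved no other count by over 1.5 times; in 2 of the group pairs, primary with secondary kidney tumors and primary kidney tumors with normal kidney, 3 of 3 arrays correlated best with their own number, a hint from the data only. Centring each array moved the median over all genes to -0.24 in primary kidney tumors against normal kidney, -0.35 in secondary tumors and -0.33 in liver tumors. Of the single-gene results under alternatives, 738 kept their direction and side of the threshold, 41 gained a call, 25 lost one and 2 changed sign.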

Other observations

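The pathway genes outside the 41 were compared between the normal organs too. Normal kidney was higher than normal liver for 12 of the 81 measured, lower for 29, and 40 were not called, where 21.4% of all genes were higher and 16.4% lower. E2f5 (1.63), Rrm2b (1.57) and Hus1 (1.49) had the largest positive log2 differences, and Ccna2 (-2.96), E2f8 (-2.69) and Dtl (-2.08) the largest negative ones. E2f5 encodes an E2f factor that represses, and Hus1 a part of the checkpoint clamp. The tumor change was larger in kidney than in liver for 21 of the 81 and smaller for 5, where 7.54% of all genes were called larger and 9.26% smaller. Ccna2 (3.15), E2f8 (2.61) and Asf1b (2.25), a histone chaperone gene, differed most in favour of kidney, and E2f5 (-1.17), Rrm2b (-1.10) and Hus1 (-0.91) most in favour of liver.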
